A study of Mus musculus with 21 samples.

Results

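The pharyngeal arch and palate patterning genes described here are 35 genes chosen by name for their roles in building the jaws and the palate. They are among the 37310 genes of the annotation used (GENCODE vM1). They comprise 9 genes for secreted ligands and receptors (Edn1, Ednra, Bmp4, Bmpr1a, Fgf8, Fgf10, Tgfb3, Pdgfc and Pdgfra) and 26 for developmental regulators. The study mapped the RNA contacts of RBM10, a regulator of alternative splicing encoded on the X chromosome, and compared polyadenylated RNA with and without an intact Rbm10 gene in 2 kinds of cell. The first kind was the md MEPA line, a conditionally immortalised line from the mandibular part of the pharyngeal arches of 11.5 dpc embryos, bred from CD1 females and an Immortomouse male. It was grown at 33 °C with 100 U/ml of murine interferon, in every group. RNA-seq covered 3 samples of wild-type md cells and 4 Rbm10 knockout lines made with CRISPR/Cas9. The deletion lies in exon 3 in KO1 and KO2, and in exon 9 in the other two lines, KO3 and KO4. Each line is a single clone. The second kind was mouse ES cells in LIF medium, with 3 samples of the male gene trap line Rbm10Gt(CSI176)Byg and 3 of its parental line E14Tg2a.4. In iCLIP, UV light (400 mJ/cm2 at 254 nm) linked protein to RNA in wild-type md cells, and the crosslinked nucleotide was read from each fragment. There were 4 libraries with an antibody to RBM10 and 4 with rabbit IgG, 1 for each replicate. Each antibody had a sequencing lane of its own, so effects of the lane and of the antibody cannot be told apart.

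As background, the mandibular arch is filled by neural crest cells that carry no Hox code, and position within it is set by signals from the surrounding epithelium. Endothelin 1 acting through its receptor Ednra induces Dlx5 and Dlx6, which with Hand2 give the arch a lower jaw identity, while Dlx1 and Dlx2 are used in both the upper and the lower part. BMP4 and FGF8 from the oral epithelium divide the mesenchyme into a distal domain with Msx and Hand genes and a proximal domain with Barx1, Lhx6 and Lhx8. The palate shelves grow out of the upper part and use Osr1, Osr2, Shox2, Pax9, Foxf2, Mn1 and Tbx22. In people, loss of RBM10 function causes TARP syndrome, which includes cleft palate and a small jaw.

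The sequences here surround nucleotides of these genes that were crosslinked in several RBM10 libraries. The gene-body counts and intronic shares further below use all crosslinks, not these positions alone. Each window holds 30 nt of the RNA strand (mm9 genome, written as DNA, 5′ to 3′). The capital letter is the crosslinked base, and each held the most crosslinks of its gene among the positions found in at least 3 RBM10 libraries (in Prrx1, jointly with a base 10 nt away).
Bmpr1a, 14:35261213-35261242, minus strand: tgcttgttttcttctCcactcctggaaatg
Prrx1, 1:165187833-165187862, minus strand: cacttccacacgctcCccagccatccacca
Pdgfc, 3:80945721-80945750, plus strand: ttctgtctgtctctaCctacacacttcggg
Eya1, 1:14243235-14243264, minus strand: cagagctggttgaccCcagtcaggcggcag
Lhx6, 2:35959145-35959174, minus strand: attcttgtactccagCctagggcgcgacat
Dlx1, 2:71370246-71370275, plus strand: acccgtcccttttctCcttggacctgggta
All 6 were crosslinked at a C, and none held a crosslink in an IgG library. They were chosen by their RBM10 crosslinks, and the IgG libraries are smaller in sum, so the lack of IgG crosslinks is no separate test.

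Levels are TPM, a length-corrected share of all transcripts in a library, so they can be compared between genes. The read depth behind them is unknown, because each library sums to 1000000, and no counting interval can be given. The iCLIP libraries held between 774816 and 2847066 crosslinks for RBM10 and between 103017 and 2214515 for IgG. Rbm10 itself had 21.4 to 23.7 TPM in wild-type md cells, 23.2 and 19.7 in the exon 3 clones, and 7.20 and 3.49 in the exon 9 clones, so for KO1 and KO2 its level is no check of the label. In ES cells its range was 3.63 to 4.27 TPM with the gene trap and 32.2 to 33.5 without it. Nothing says that the wild-type md samples or the samples of an ES line came from separate cultures, and the spread behind the p-values may therefore be technical.

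In wild-type md cells Prrx2, Prrx1, Pdgfc, Bmpr1a and Twist1 were the highest of the set, and the lower jaw genes Dlx5, Dlx6, Hand1 and Hand2 were listed at or near 0. Of the 35 genes, 12 had at least 5 TPM in all 3 wild-type samples, 7 lay between 1 and 5, 6 were below 1 in some sample, and 10 were listed at 0 in all 3 samples. Prrx2 (2:30690492-30736761) led with 54.5, 57.3 and 60.5 TPM, above 87.1% of all genes listed above 0, and its paralog Prrx1 (1:165175247-165243841) followed with 47.3, 49.1 and 49.8. Both encode homeodomain proteins of limb and face mesenchyme, and their ranges did not overlap. Twist1, a basic helix-loop-helix factor that keeps cranial neural crest cells mesenchymal, had 21.4, 23.0 and 22.2 TPM. Msx1, which is needed for palate and tooth growth, had 6.84, 6.93 and 6.56 TPM, while its paralog Msx2 was listed at 0 in every md library. Alx4, a factor of the frontonasal region, was also listed at 0. Eya1, a transcriptional coactivator and phosphatase, had 2.01, 2.63 and 2.54 TPM. Of the neural crest factors, Tfap2a held 5.45, 5.48 and 5.50 TPM and Sox9, the regulator of cartilage fate, 2.58, 3.36 and 2.72.

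The genes that mark position along the arch split by family. Dlx1 had 9.60, 11.7 and 11 TPM and Dlx2 9.51, 9.45 and 8.72, so the pair used in both arch parts was present, with the highest Dlx2 value just below the lowest Dlx1 value. Dlx6 had 0.564, 0.350 and 0.140 TPM, and Dlx5 was listed at 0 in 2 of the 3 samples and at 0.0418 in the other. Hand1 and Hand2, markers of the distal lower jaw, Gsc, which acts downstream of endothelin in the jaw and middle ear, and Barx1, a marker of molar-forming mesenchyme, were listed at 0 in all 7 md libraries. Lhx6 had 4.33, 4.49 and 4.49 TPM, whereas its partner Lhx8 was listed at 0. Of 14 Hox genes, 1 (Hoxb3, mean 1.06 TPM) had at least 1 TPM in every wild-type sample, and the 14 together summed to 4.77 to 5.42 TPM, against 1.85 to 2.10 in the parental ES line described below. Hoxb2, Hoxb4, Hoxb5 and Hoxd3 had means of 0.703, 0.688, 0.544 and 0.614 TPM. Dlx5, Dlx6 and Hand2, which define the label's mandibular identity, were thus at or near 0, while several Hox genes were detected at a low level. Of a list of 25 other genes of arch and face position, 10 had at least 1 TPM in every wild-type sample and 11 were listed at 0. Its highest were Emx2 with 24.7 ± 1.28 TPM, Pbx2 with 11.1 ± 0.506 and Meis2 with 9.60 ± 2.37 (SD, n = 3).

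Ligands and receptors were unevenly present. Edn1, the ligand that sets lower jaw fate, had 3.20, 4.24 and 3.20 TPM, but its receptor Ednra was listed at 0 in all 7 md libraries. The intracellular part of this pathway was present: of 12 further pathway genes, 9 had at least 1 TPM in every wild-type sample, among them the G protein subunit Gna11 (37.4 ± 1.18), the transcription factor Mef2d (29.1 ± 1.94) and the protease Furin (25.3 ± 0.353; SD, n = 3). For BMP signalling, Bmp4 had 10.2, 12.0 and 11.1 TPM and the type 1 receptor Bmpr1a (14:35223920-35316527) 25.8, 25.5 and 26.2. The BMP response genes Id3, Id2 and Id1 had means of 132, 70.3 and 39.8 TPM. For PDGF signalling, the ligand Pdgfc (3:80840338-81017962) had 35.9, 37.7 and 38.4 TPM, and Pdgfra, the receptor of cranial neural crest cells, 0.207, 0.227 and 0.291. The other PDGF receptor gene, Pdgfrb, had 10.4 ± 0.376 TPM (SD, n = 3). Fgf8 was listed at 0, Fgf10 had 0.251 to 0.381 TPM, and Tgfb3, needed for fusion of the palate shelves, had 1.95 to 2.21.

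Of the palate factors, Shox2 had 10.3, 10.5 and 9.82 TPM and Osr1 10.4, 10.6 and 9.44, and the ranges of these 2 genes overlapped. Foxf2 had 1.79 to 2.15 TPM, Pax9 1.36 to 1.69, Osr2 0.970 to 1.13 and Mn1 0.206 to 0.433, and the X-linked Tbx22 was listed at 0. Shox2 lies opposite the transcribed gene Rsrc1, and 12 of the 35 genes overlap an annotated gene on the other strand. Whether the RNA libraries kept strand is not given in the sources used here, so the TPM of these genes is uncertain.

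**Figure D1:**
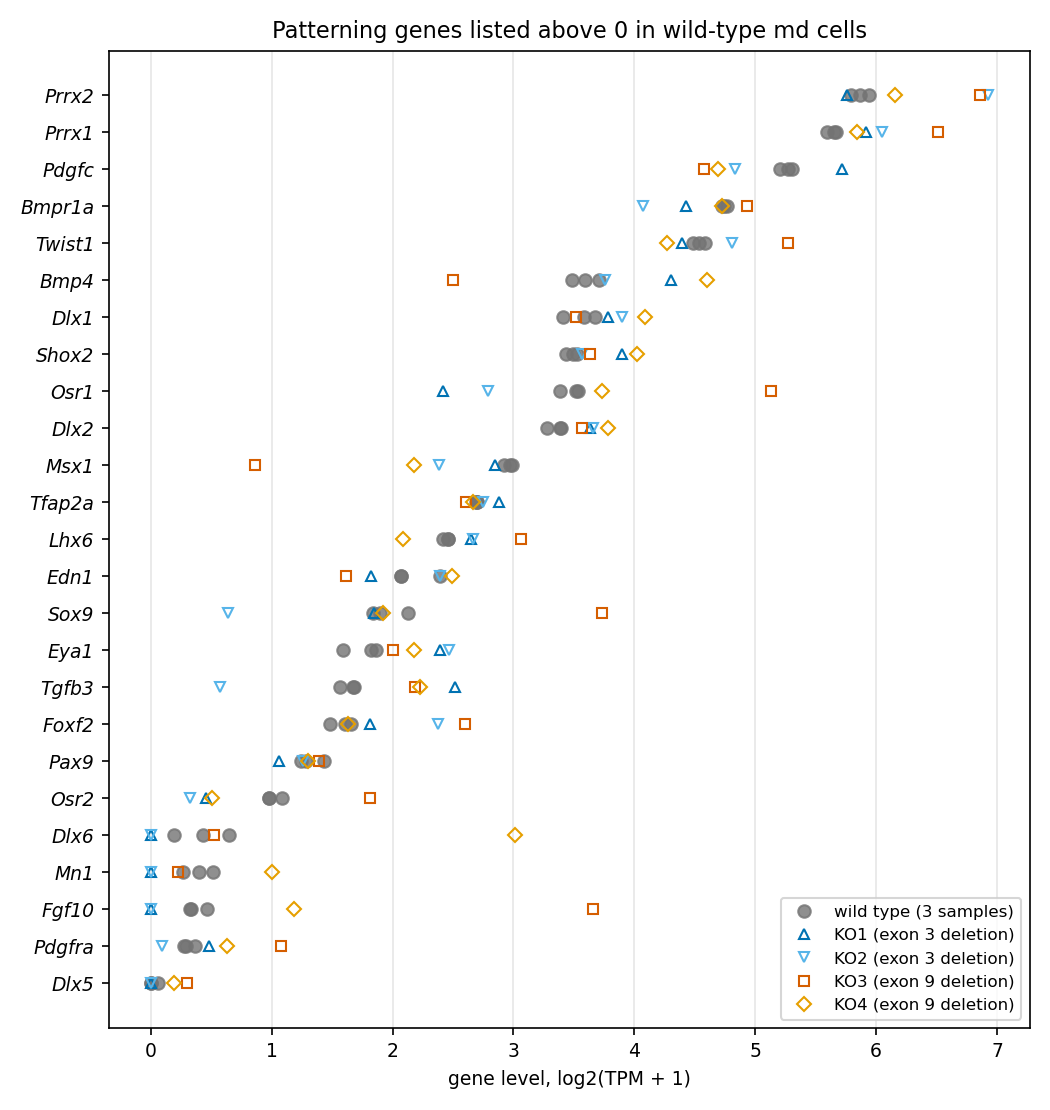
Levels of the 25 genes listed above 0 in wild-type md cells, as log2(TPM + 1), with 3 wild-type samples as dots and clones KO1 to KO4 as separate markers. Prrx2 and Prrx1 stand highest, the wild-type dots lie close together, and the clones scatter most for Osr1, Sox9, Fgf10 and Dlx6.

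Markers of other cell types were checked in the same libraries. Mesenchyme markers summed to 4649 to 4947 TPM in wild-type samples, led by Vim (3207 ± 167) and Col1a2 (984 ± 95.2; SD, n = 3), with 8 of 10 at or above 1 TPM in every sample. Of 10 epithelial markers 0 reached 1 TPM in every sample and 5 were listed at 0, with sums of 0.738 to 1.16 TPM. Endothelial and skeletal muscle markers had 6 of 7 genes each listed at 0. Leukocyte markers summed to 8.20 to 9.49 TPM. Of these 7 genes 2 had at least 1 TPM in every sample and 3 were listed at 0, among them the defining gene Ptprc. Neuron and glia markers summed to 35.6 to 39.5 TPM, of which Tubb3 made up 34.8 ± 1.96. Of 12 neural crest genes 5 had at least 1 TPM in every wild-type sample (Twist2 25.4 ± 2.33, Ets1 18.1 ± 0.606 and Snai2 11.8 ± 0.348 the highest), and Sox10, Foxd3 and Pax3 were listed at 0. In such bulk samples, fewer cells of a type and less RNA per cell cannot be told apart.

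The 10 genes listed at 0 in wild-type md cells were listed at 0 in all 4 clones, and 16 of the 35 had at least 1 TPM in every clone. The filter of 1 TPM in 3 or more md libraries left 19 genes. Of these, 0 passed the limma test of clones against wild type (lowest adjusted p = 0.672), where 0.0165% of all 12090 genes passed. At an unadjusted p under 0.05 there were 3, Eya1, Dlx2 and Prrx1, against 6.86% of all genes. The median difference of the 19 was 0.17 on the log2(TPM + 1) scale, with 14 above 0 and 5 below. That of all genes was 0.01, with 52.1% above 0. After quantile normalization the median of the 19 was 0.11, with 7 below 0, and that of all genes −0.008. On the log2(TPM + 1) scale the change of low genes is understated. In simulated data for this comparison the test recovered 57.5% of 200 genes changed 2-fold on that scale, so differences of that size can be missed. Those 200 were drawn from genes above about 5 TPM in wild type, while 7 of the 19 lay at 1 to 5 TPM. Recovery at those lower levels was not simulated.

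In 5 genes the clones and the wild-type samples did not overlap. They were higher in all clones for Dlx2, Prrx1, Eya1 and Shox2, where 6.33% of all genes had this pattern, and lower for Msx1, where 4.38% had it. Prrx1 had 59.4, 65.0, 90.2 and 56.4 TPM in KO1 to KO4, all above the wild-type maximum of 49.8 (difference 0.44, SE 0.17, limma adjusted p = 0.721). Eya1 had 4.25, 4.52, 3.01 and 3.52 TPM, with the lowest clone above the highest wild-type sample at 2.63 (0.50, SE 0.16, adjusted p = 0.672). Dlx2 had 11.4, 11.6, 10.8 and 12.8 TPM against at most 9.51 in wild type (0.31, SE 0.11, adjusted p = 0.696). Shox2 had 13.9, 10.9, 11.4 and 15.3 against at most 10.5 (0.30, SE 0.14, adjusted p = 0.738). Msx1 had 6.19, 4.23, 0.813 and 3.53 TPM, all below the wild-type minimum of 6.56, with KO3 far below the other 3 clones (−0.89, SE 0.42, adjusted p = 0.738).

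The genes that lay far from wild type varied from clone to clone, with Osr1, Sox9 and Bmp4 each far in 2 clones. All 4 clones are compared with the same 3 wild-type samples. Of the 19 genes tested, 1 lay at least 2-fold from the wild-type mean on the log2(TPM + 1) scale in KO1, 3 in KO2, 5 in KO3 and 1 in KO4. Of all genes tested, 4.93%, 3.62%, 6.07% and 5.92% did so. The gene was Osr1 in KO1 (lower). In KO2 they were Prrx2 (higher), Sox9 and Tgfb3 (both lower). In KO3 they were Foxf2, Osr1 and Sox9 (higher), Bmp4 and Msx1 (lower), and in KO4 the gene was Bmp4 (higher). Osr1, a zinc finger factor, had 4.33 and 5.92 TPM in the exon 3 clones and 34.0 and 12.3 in the exon 9 clones, so its clones lay on both sides of the wild-type values. Sox9 had 2.59, 0.555, 12.3 and 2.78 TPM in KO1 to KO4, with KO1 and KO4 near the wild-type samples. Bmp4 had 18.7, 12.6, 4.67 and 23.3 TPM, where KO3 was below and the other 3 clones above the wild-type maximum of 12.0. Prrx2 was near wild type in KO1 (53.2) and higher in KO2, KO3 and KO4 (120, 115 and 70.2). Tgfb3 had 0.488 TPM in KO2 and 3.55 to 4.74 in the other clones. The median absolute difference was 0.276, 0.409, 0.619 and 0.309 over the 19 genes in KO1 to KO4, and 0.256, 0.219, 0.228 and 0.271 over all genes. In every clone 12 of the 19 genes stayed within 2-fold, as did 86.0% of all genes.

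The other 12 genes tested lay within 2-fold of the wild-type mean in every clone. Tfap2a had 5.08 to 6.38 TPM in the clones, Pax9 1.09 to 1.63, Dlx1 10.5 to 16, Lhx6 3.26 to 7.35 and Twist1 18.3 to 37.6. Pdgfc had 51.5 TPM in KO1 and 27.4, 22.9 and 24.8 in KO2 to KO4, so KO1 lay above and the other clones below the wild-type range. Bmpr1a had 20.5, 15.9, 29.5 and 25.5 TPM. Genes too low for the test included Dlx6 and Fgf10, a growth factor of palate mesenchyme. Dlx6 was listed at 0 in KO1 and KO2 and had 0.433 and 7.08 TPM in KO3 and KO4. Fgf10 was likewise at 0 in KO1 and KO2 and had 11.6 and 1.28 TPM in KO3 and KO4. Mesenchyme markers summed to 3195 to 5037 TPM over the clones, epithelial markers to 0.349 to 9.87 and leukocyte markers to 10.1 to 20.1 (Ptprc at 0 in wild type). Of the 7 leukocyte markers 3 had at least 1 TPM in every clone. The part of these markers in the differences was not tested.

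The exon 9 and exon 3 clones were compared in a fit that also held the wild-type samples, whose spread enters the p-values. Over all genes 170 were higher and 281 lower. Without any 1 wild-type sample, 28 to 30 were higher and 23 to 29 lower. Of the 19 genes tested 0 passed, where 3.73% of all 12090 genes passed in the same limma test, and 4 had an unadjusted p under 0.05 against 22.7% of all genes. The lowest adjusted p was 0.0699, for Osr1 (difference 1.83, SE 0.42). Groups did not overlap for 4 genes that were higher and 4 that were lower in the exon 9 clones, where 42.9% of all genes had groups apart with 2 clones on each side (16.7% higher and 26.2% lower). KO4 weighed most in the count. Without KO4, 6 genes passed, namely Bmp4 (−1.53), Bmpr1a (0.68), Msx1 (−1.76), Osr1 (2.53), Prrx1 (0.53) and Sox9 (2.50). Without KO3 there were 2 (Lhx6 and Osr1), without KO1 there was 1 (Tgfb3) and without KO2 1 (Pdgfc). Each such value rests on 1 lone clone that is assumed to vary like the other groups. Against the wild-type samples, which all these contrasts share, 0 of the 19 genes passed for either pair of clones, where 0.199% (exon 3) and 0.629% (exon 9) of all genes passed. Osr1 passed for the exon 3 pair without KO3 or KO4, and Lhx6, Msx1, Osr1 and Prrx1 passed for the exon 9 pair without KO4.

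Among the pathway lists, 0 genes in any list passed between all clones and wild type, under the main setting and each of its 12 alternatives. Between exon 9 and exon 3 clones, where 3.73% of all genes passed, 3 of 9 endothelin pathway genes did: Plcb3, a phospholipase downstream of the receptor, was higher (0.91, SE 0.16, limma adjusted p = 0.0347), and Mef2d (−0.66, adjusted p = 0.0357) and Mef2c (−1.42, adjusted p = 0.0499, not past the threshold after quantile normalization) were lower. Of 10 BMP pathway genes, Id2 (−1.42, adjusted p = 0.0337) and the signal transducer Smad9 (−0.91, adjusted p = 0.0299) were lower and 0 were higher. Of 8 mesenchyme markers, Cdh11 (4.20) and Col3a1 (3.28) were higher in the exon 9 clones, but 4 of the 8 lay below 0 and their median was 0.02. In the FGF, SHH, PDGF and TGF-beta list 0 of 17 passed, as did 0 of 11 arch position genes and 0 of 5 neural crest genes. The medians of the endothelin and BMP lists were −0.10 and −0.18, and that of all genes −0.06. The p-values of this contrast also rest on the spread of the wild-type samples. Leaving out any 1 of those samples ended the calls of Plcb3, Mef2d, Mef2c, Id2, Smad9 and Col3a1. Of the 9 list genes called here, Cdh11 alone passed under each of the 10 alternatives, over which the FGF, SHH, PDGF and TGF-beta list had 0 to 4 genes higher and 0 to 3 lower.

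In ES cells most of the set was silent or low. In the parental line 6 of the 35 genes had at least 1 TPM in every sample (7 in the gene trap line) and 10 were listed at 0 in all 3. The md and ES values were normalized separately, so levels are set side by side with no test between them. Prrx1 and Osr1, at 48.7 ± 1.30 and 10.2 ± 0.624 TPM in wild-type md cells (SD, n = 3), were listed at 0 in all 6 ES libraries, and Shox2 had at most 0.361 TPM there. Twist1 had 1.77, 2.04 and 1.65 TPM in the parental line against 22.2 ± 0.815 in md cells (SD, n = 3). Bmp4 ran the other way, with 22.0, 20.4 and 29.8 TPM in the parental line and 11.1 ± 0.919 in md cells. Fgf8 (0.924 to 1.71 TPM) and Hand1 (0.395 to 0.898 TPM) were detected in the parental ES line and listed at 0 in md cells.

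Of the 8 genes tested in ES cells, 3 passed between the gene trap and the parental line, where 12.3% of all 12860 genes did in the same limma test (7.53% higher and 4.73% lower in the gene trap line). The receptor gene Bmpr1a had 12.3, 12.6 and 12.7 TPM in the gene trap line and 7.83, 9.13 and 9.13 in the parental line. Its groups did not overlap, and it rose by 0.48 on the log2(TPM + 1) scale (SE 0.095, adjusted p = 0.0292). Hand1 (11:57642207-57646320), which in early embryos also marks trophoblast and extraembryonic mesoderm, had 3.89, 3.58 and 1.53 TPM against 0.898, 0.395 and 0.641 (difference 1.23, SE 0.27, adjusted p = 0.0361). It met the filter of 1 TPM in 3 libraries through the gene trap samples alone, so it entered the test by the group where it is high. With no filter its limma adjusted p was 0.0584, and without any 1 gene trap sample it was too low for the test. Pdgfc had 9.47, 6.08 and 4.95 TPM against 12.8, 13.4 and 15.5, and fell by 0.96 (SE 0.21, adjusted p = 0.0359). Each of these 3 calls ended without parental sample 1 or 2 (adjusted p up to 0.131 for Bmpr1a, 0.129 for Hand1 and 0.128 for Pdgfc over the alternatives). Those of Bmpr1a and Pdgfc also ended without gene trap sample 2 or 3, and those of Hand1 and Pdgfc without parental sample 3 or with no filter on low values.

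Among the 5 genes that did not pass, Twist1 had 2.43, 3.99 and 4.72 TPM in the gene trap line, all above the parental values (0.71, SE 0.20, adjusted p = 0.0577), and it passed without gene trap sample 1. Bmp4 had 13.6, 16.7 and 18.8 TPM, all below the parental minimum of 20.4 (−0.52, SE 0.17, adjusted p = 0.0875). Groups did not overlap in 5 of the 8 genes, 3 higher and 2 lower in the gene trap line, where 23.8% and 14.5% of all genes had these patterns (38.3% in all). Prrx2 (1.64 to 3.18 against 1.92 to 3.78 TPM), Lhx6 (1.61 to 2.17 against 1.78 to 2.25) and Fgf8 (0.505 to 2.27 against 0.924 to 1.71) had overlapping groups. Msx1, too low for the test, had 0.509, 2.21 and 1.83 TPM in the gene trap line and 0.240, 0.242 and 0.354 in the parental line.

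**Figure D2:**
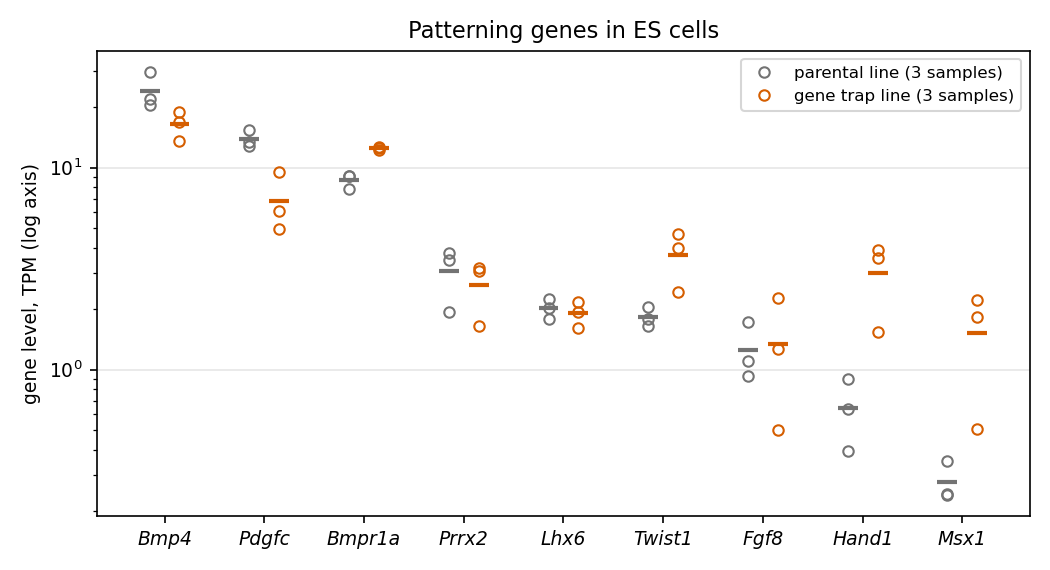
Levels of 9 genes in the ES libraries, as TPM on a log axis, with each library as a point and the group mean as a bar. Bmpr1a and Hand1 lie higher and Pdgfc lower in the gene trap line with no overlap, while Prrx2, Lhx6 and Fgf8 overlap.

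Other genes of the same pathways also differed between the ES lines. Over all genes 7.53% were higher and 4.73% lower in the gene trap line. Of 17 genes in the FGF, SHH, PDGF and TGF-beta list, 3 were higher: Dusp6 (0.80, adjusted p = 0.0155) and Spry2 (0.47, adjusted p = 0.0463), both feedback inhibitors of FGF signalling, and the SHH signal transducer Smo (0.55, adjusted p = 0.0212). Another 3 were lower: the SHH targets Ptch1 (−0.58, adjusted p = 0.0453) and Gli1 (−0.60, adjusted p = 0.0278), and the ligand Pdgfa (−0.54, adjusted p = 0.0269; all limma). Of 6 arch position genes 3 were higher, among them Gbx2 (1.36) and Otx2 (1.14), and Tbx3 (−1.81) was lower. Smad5 was the 1 of 11 BMP pathway genes that passed (0.69, adjusted p = 0.0443). After quantile normalization neither Smad5 nor Spry2 passed. Of 4 neural crest genes Tfap2c was lower (−0.87, adjusted p = 0.00761), and 0 of 8 endothelin genes passed. Pluripotency markers moved as well, with Utf1 higher and Nanog, Esrrb and Klf4 lower of 8 tested, and their part in these differences was not tested. None of the 21 list genes called in ES cells passed under every one of its alternatives. The share of all ES calls that were higher was 61.4%, and 46.2% after quantile normalization. The median of the 8 genes was −0.02, turning to 0.005 after quantile normalization, and that of all genes 0.03.

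Transcript use within these genes was compared because RBM10 acts on splicing. In md cells 34 transcripts of 12 of the genes could be tested, and 0 passed a change of at least 10 points of the gene's TPM, where 0 of 18725 transcripts passed overall (lowest limma adjusted p of the 34 = 0.564). At an unadjusted p under 0.05 there were 3 of the 34, against 7.90% of all transcripts. They were Pax9-201 and 2 transcripts of Tfap2a, whose shares mirror each other, so those 2 are the same change counted 2 times. For Bmpr1a the transcript Bmpr1a-001 held 48.8 ± 3.44% of the TPM in the clones (SD, n = 4) and 48.0 ± 2.43% in wild type (SD, n = 3). For Pdgfc the transcript Pdgfc-002, annotated as a target of nonsense-mediated decay, held 84.0 ± 0.363% and 83.8 ± 1.45%. The difference was largest for Eya1-201, with 30.8 ± 17.0% in the clones and 47.9 ± 16.1% in wild type (adjusted p = 0.750), values that overlapped. In ES cells 14 transcripts of 5 genes were tested and 0 passed (0.0477% of all; lowest limma adjusted p of the 14 = 0.215). At an unadjusted p under 0.05 there were 2, against 12.3% of all transcripts, both of Lhx6. Lhx6-002 held 17.5, 58.1 and 45.4% of the TPM in the gene trap line and 21.1, 6.32 and 8.65% in the parental line (28.3 points, SE 10.5, adjusted p = 0.359), values that overlapped. The noncoding Lhx6-006 held 60.0, 41.9 and 46.5% against 76.4, 69.6 and 67.2%, without overlap (−21.6 points, SE 5.31, adjusted p = 0.215). Bmpr1a-001 held 76.1 ± 5.89% in the gene trap line and 82.3 ± 5.43% in the parental line (SD, n = 3 each). These shares depend on how reads were divided among transcripts.

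Crosslinks were counted over each gene body on its own strand. Prrx1 and Pax9 overlap another annotated gene on the same strand (Gm17698 and Gm15524), so their counts can include crosslinks of that gene. Of the 35 genes, 21 held at least 10 crosslinks in the 8 libraries together, 7 held 1 to 9 and 7 held 0 (Hand1, Hand2, Fgf8, Barx1, Gsc, Msx2 and Tbx22). A count of 0 allows up to 0.396 CPM (crosslinks per 1000000) in the pooled RBM10 libraries and 0.872 in the pooled IgG libraries, for counting error only. All 7 genes at 0 were also listed at 0 TPM in md cells, and Ednra held 1 RBM10 and 2 IgG crosslinks. Across the 25 genes above 0 TPM, the level in wild-type md cells and the pooled CPM had a Spearman rho of 0.783 for RBM10 and 0.793 for IgG. The points share libraries and are not corrected for gene length.

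For 10 genes the crosslinks sufficed for a test, and 0 were higher and 3 lower in RBM10 libraries than in IgG libraries. Of all 9284 genes tested, 37.4% differed, 20.4% higher and 17% lower (edgeR quasi-likelihood test). The same 3 genes were the ones whose groups did not overlap, with RBM10 lower, a pattern of 14.4% of all genes. Pdgfc held 226, 291, 204 and 199 CPM (here with TMM scaling) in RBM10 libraries 1 to 4 and 381, 455, 563 and 433 in IgG libraries 1 to 4. Every RBM10 library was below every IgG library, a log2 fold change of −0.97 (SE 0.19, edgeR adjusted p = 0.00260). Shox2 held 9.99, 12.0, 7.55 and 4.89 CPM against 22.3, 22.1, 30.7 and 44.8, again apart (−1.50, SE 0.39, adjusted p = 0.00983). The last 2 IgG values rest on 3 and 6 crosslinks. Prrx1 held 346, 346, 220 and 225 CPM against 452, 537, 460 and 403 (−0.72, SE 0.20, adjusted p = 0.0146). Its call ended without TMM factors, without RBM10 library 4 and without IgG library 2 (adjusted p up to 0.0799).

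The other 7 genes tested did not pass. Bmpr1a held 127 ± 19.3 CPM in RBM10 and 151 ± 25.3 in IgG (SD, n = 4; −0.33, edgeR adjusted p = 0.183). Eya1 held 51.8 ± 17.6 against 76.4 ± 24.2 (−0.58, adjusted p = 0.131), and Tfap2a 40.0 ± 9.44 against 37.4 ± 26.5 (0.16). Lhx6 held 28.7 ± 3.69 against 22.4 ± 16.7, Prrx2 13.4 ± 6.85 against 15.9 ± 11.5, Osr1 10.5 ± 2.28 against 12.3 ± 9.27 and Dlx1 12.7 ± 5.26 against 14 ± 6.60. The median of the 10 was −0.45 and that of all genes 0.05. Without TMM factors these were −0.20 and 0.32, and 75.0% of all calls were then higher in RBM10 in place of 54.5%. Without RBM10 library 2, 5 genes passed, with Dlx2 (higher) and Eya1 (lower) added. Among the genes too thin for the test, Edn1 held 75 RBM10 and 20 IgG crosslinks, Tgfb3 77 and 14, Dlx2 92 and 15 and Twist1 68 and 33, where the pooled RBM10 libraries are larger (7582304 against 3440608 crosslinks).

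**Figure D3:**
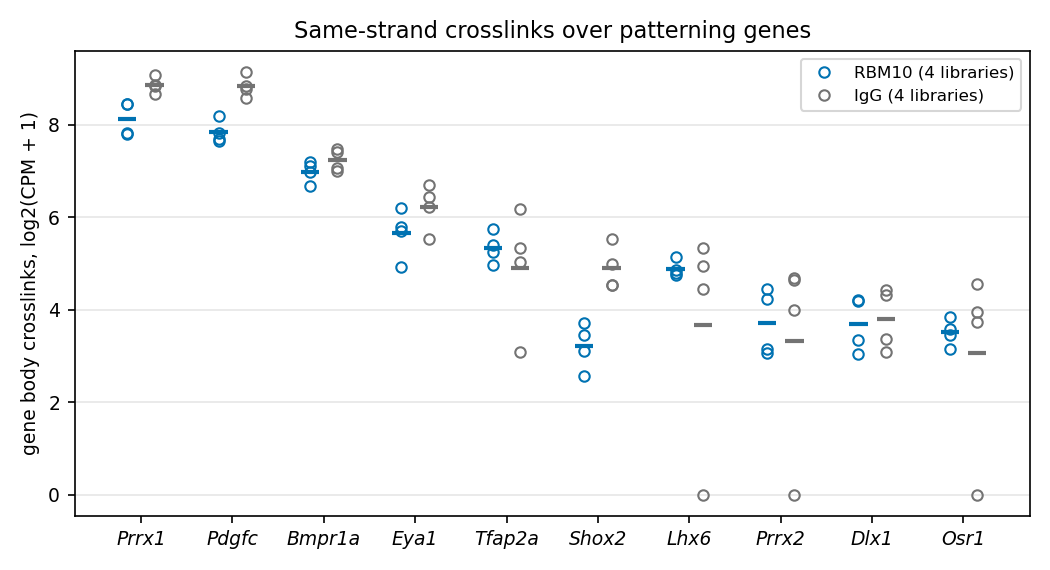
Crosslinks over the gene bodies of the 10 genes tested, as log2(CPM + 1), with each library as a point and the mean of the log values as a bar. RBM10 points lie below IgG points without overlap for Pdgfc, Prrx1 and Shox2.

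Where the crosslinks lay within the introns differed between the antibodies. The 100 nt upstream of 3′ splice sites, which hold the branch point and the polypyrimidine tract, make up 1.67% of the intronic bases of these 35 genes. They held 11, 7.92, 19.9 and 17.1% of the intronic crosslinks in the RBM10 libraries and 1.72, 1.15, 0 and 2.68% in the IgG libraries, so the lowest RBM10 library was above the highest IgG library. Over all genes the shares were 24.8 ± 5.30% and 3.61 ± 0.704% (SD, n = 4). The share of intronic bases in these regions was not computed for all genes, so these shares do not rank the 35 genes against all genes. Exons left out were those of the gene itself for the 35 genes, and those of every gene on the strand for all genes. Without Bmpr1a the RBM10 shares were 9.02, 5.68, 14.7 and 11.7%, against 1.72, 1.20, 0 and 2.91% in IgG. Without Pdgfc they were 14, 10.7, 25.5 and 21.5%, against 2.55, 1.73, 0 and 5.45%. Both ways of leaving out a gene were chosen after seeing the data, and in each the lowest RBM10 library stayed above the highest IgG library. The distance of 61 to 80 nt held the most crosslinks of any 20-nt bin in each RBM10 library, with 46, 67, 192 and 29 crosslinks (5.38, 2.85, 10.2 and 5.97% of the intronic ones), and 3, 3, 0 and 2 in the IgG libraries. In these genes 32.3 ± 7.15% of RBM10 crosslinks were at C, against 13.6 ± 2.22% in IgG. At U there were 44.1 ± 7.06% and 58.8 ± 2.11% (SD, n = 4). The genes' share of all crosslinks was lower in RBM10, at 946 ± 130 CPM against 1218 ± 143.

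**Figure D4:**
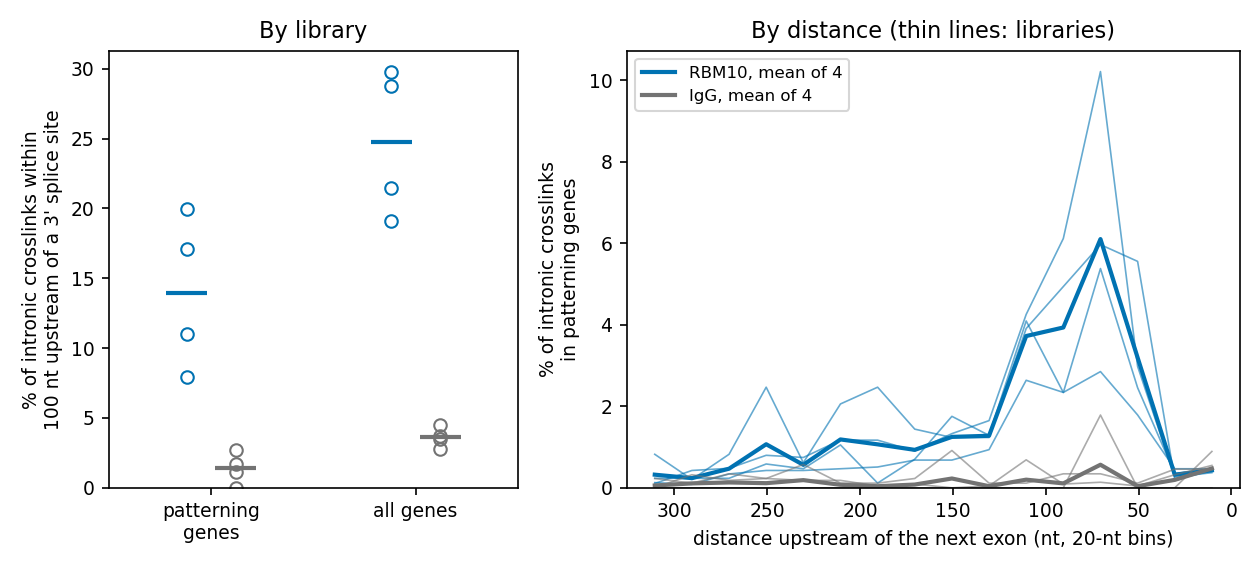
Left, the percent of intronic crosslinks within 100 nt upstream of a 3′ splice site in each library, for the 35 genes and for all genes, with bars for group means. Right, the percent of the 35 genes' intronic crosslinks by distance upstream of the next exon in 20-nt bins, with thin lines for libraries and thick lines for their means, where the RBM10 lines peak at 61 to 80 nt and the IgG lines stay low.

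Of the 10 genes with at least 10 intronic crosslinks in both groups, Bmpr1a held the highest share of RBM10 crosslinks beside splice sites, with an interval that overlapped those of Edn1 and Prrx2. Of its 890 intronic RBM10 crosslinks 283 (31.8%, 95% Wilson interval 28.8 to 34.9%) were within 100 nt upstream of a 3′ splice site, against 4 of 406 (0.985%, 0.384 to 2.51%) in IgG. These regions make up 1.39% of its intronic bases. By library the shares were 21.6, 20.4, 47.1 and 40.2% for RBM10 and 1.72, 0.743, 0 and 0% for IgG. Eya1 had 16.9% (13.6 to 20.8%) against 1.24%, Prrx2 21.7% (14.5 to 31.2%) against 0 of 64 crosslinks, and Prrx1 6.51% (5.35 to 7.90%) against 1.27%. Pdgfc, whose near regions are 0.348% of its intronic bases, had 103 of 1862 (5.53%, 4.58 to 6.67%) against 3 of 1279 (0.235%). Edn1 had 18 of 61 (29.5%, 19.6 to 41.9%) against 0 of 11, in introns where these regions are 9.14% of the bases. Of these 10 genes, the share was higher in RBM10 in 9. It was not higher for Tfap2a, at 12.3% (8.86 to 16.9%) against 13.6% (7.76 to 22.7%), and for Osr1 the 16.7% and 15.8% had overlapping intervals. Intervals cover counting error only, since crosslinks at a base can be copies of 1 molecule. The gene-body count and the position within introns thus gave different orders for Pdgfc and Prrx1, which held a lower CPM in RBM10 than in IgG libraries overall and a larger share of them beside splice sites.

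**Figure D5:**
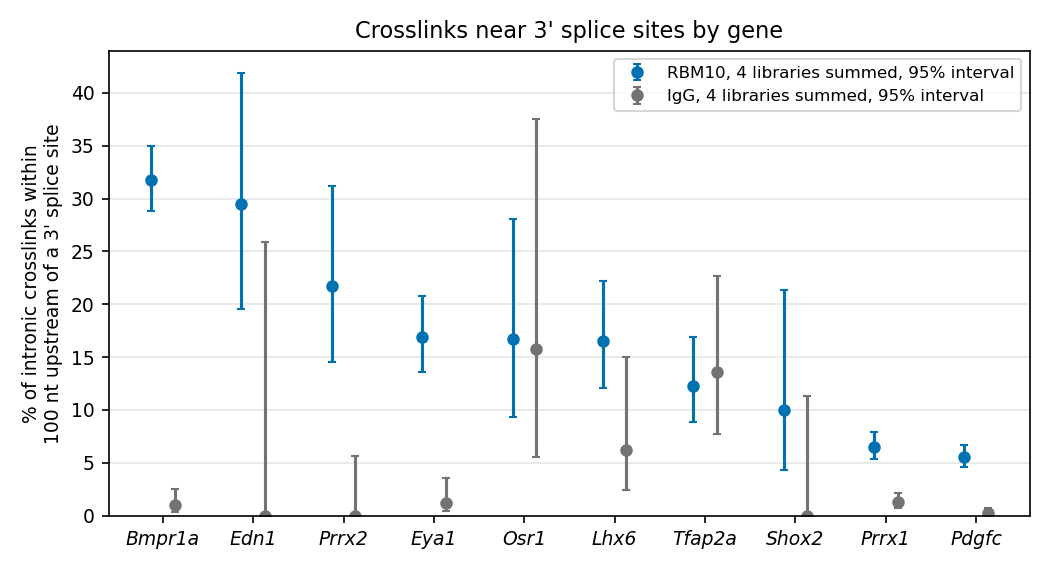
Percent of each gene's pooled intronic crosslinks within 100 nt upstream of a 3′ splice site, for the 10 genes with at least 10 intronic crosslinks in both groups, with 95% Wilson intervals that cover counting error only. The RBM10 value is highest for Bmpr1a (31.8%) and exceeds the IgG value in every gene shown except Tfap2a.

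In these genes 60 nucleotides were crosslinked in at least 3 RBM10 libraries, 13 of them in all 4, and 57 held 0 IgG crosslinks. By the same count 1 nucleotide recurred in the IgG libraries, which are shallower. Such a nucleotide needs a crosslink in IgG library 3 or 4, which held 137 and 161 crosslinks in these genes. The counts of 60 and 1 therefore cannot be compared between the antibodies. The 60 were chosen by their RBM10 crosslinks, so the lack of IgG crosslinks at them is no separate test. Of the 60, 36 were C and 18 T in the genome, and 21 lay within 100 nt upstream of a 3′ splice site, at 49 to 100 nt with a median of 75. Prrx1 held 24 of them, Bmpr1a 14, Pdgfc 11, Lhx6 5 and Eya1 2, and Dlx1, Dlx2, Prrx2 and Twist1 held 1 each. In Bmpr1a, 13 of the 14 lay before exons 3 (48 crosslinks at 4 positions), 5 (39 at 3), 7 (16 at 3) and 8 (43 at 3) of Bmpr1a-001, all with 0 IgG crosslinks. The Bmpr1a base printed above, 63 nt before exon 3, held 1, 3, 17 and 6 crosslinks in RBM10 libraries 1 to 4, so library 3 gave most of them. The Eya1 base, 66 nt before exon 8 of Eya1-201, held 4, 5, 3 and 0. In Prrx1, 3 positions 75 to 77 nt before exon 5 of Prrx1-002 held 31 crosslinks.

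The other printed bases lay elsewhere. The Prrx1 base held 6, 6, 5 and 7 crosslinks in RBM10 libraries 1 to 4, whose totals differ in size, and lies in the 3′ UTR of Prrx1-004, which is an intron of the longer Prrx1-001 and Prrx1-002. The Pdgfc base held 2, 3, 13 and 3 crosslinks and lies deep in intron 2 of Pdgfc-001, 33002 nt before the next exon. The Lhx6 base, 111 nt before exon 2 of Lhx6-001, held 1, 6, 3 and 0, just outside the 100-nt limit. The Dlx1 base, 60 nt before exon 3 of Dlx1-001, held 1, 2, 3 and 0, and is exonic in the noncoding transcript Dlx1-003, so it was not counted as near a splice site.

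The pathway lists showed gene-body calls in both directions, where 17% of all genes were lower in RBM10 libraries and 20.4% higher. Of 10 BMP pathway genes 6 were lower and 0 higher, among them the type 2 receptor gene Bmpr2 (−1.03, SE 0.22, edgeR adjusted p = 0.00365) and the inhibitory Smad6 (−0.94, adjusted p = 0.0120). With the replicate pair as a block 3 of the 6 passed, with DESeq2 3, and without TMM factors 1. In the FGF, SHH, PDGF and TGF-beta list 5 of 13 were lower, including Gli3 (−1.0, adjusted p = 0.00372) and Tgfb2 (−0.89, adjusted p = 0.00396), and Pdgfrb was higher (0.83, adjusted p = 0.00814). With the block Spry2 was no longer among the lower genes, but their count stayed at 5 because another gene of the list was added. Of 9 endothelin genes Mef2c (−1.21), Gnaq (−0.95) and Mef2a (−0.89) were lower and Plcb3 was higher (1.58, adjusted p = 0.00421). Of 7 arch position genes 3 were lower, among them Meis2 (−1.11). Of 4 neural crest genes Twist2 (−1.0), Zeb2 (−1.23) and Sox5 (−1.24) were lower, and with the block Sox5 did not pass. Hoxd4 (2.18, adjusted p = 0.00143) and Hoxd3 (0.79, adjusted p = 0.0376) were the 2 of 5 Hox genes that passed, both higher. The medians were −0.69 for the BMP, −0.64 for the FGF, SHH, PDGF and TGF-beta, −0.51 for the endothelin and −1.11 for the arch position list. Of the 31 list genes called in this comparison, 15 passed under every alternative. Over the 14 alternatives the count of lower genes ran from 1 to 6 in the BMP list, 2 to 6 in the arch position list, 2 to 6 in the FGF, SHH, PDGF and TGF-beta list and 0 to 4 in the neural crest list.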

How the data were processed

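The RNA-seq values are TPM of single transcripts, as the authors deposited them. Gene TPM sums the transcripts whose identifiers are in GENCODE vM1 (mm9) (84877 of 100249, 84.7%, with 85.4 to 91.5% of each library's TPM). Transcripts left unjoined were not counted. The iCLIP values are counts of crosslinks at each position and strand, deposited by the authors and mapped to mm9 per the design text. The submitters' processing notes name mm9 and mm10. No aligner or quantifier, and no handling of duplicates, is given in the sources used here. Groups and replicate numbers came from the sample titles.

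A limma 3.58.1 model (R 4.3.3, eBayes with a trend) of log2(TPM + 1) tested genes that reached 1 TPM in 3 or more libraries, all clone contrasts from models with the wild-type samples. Transcript shares (mean between 5 and 95%) were tested likewise. The test of gene-body crosslinks was the quasi-likelihood one of edgeR 4.0.16 after filterByExpr and TMM scaling, with DESeq2 1.42.0 as an alternative. All tests were 2-sided and used a Benjamini-Hochberg adjusted p under 0.05 over all features. On simulated data limma recovered 78.0% of 200 genes changed 2-fold on the log2(TPM + 1) scale for the ES comparison (12860 genes). For the iCLIP comparison (9284 genes), edgeR recovered 98.4% of the genes changed 4-fold that passed its filter in the simulated counts. The changed genes were drawn only from those with higher levels or crosslink counts. The iCLIP simulation gave all genes the same spread between libraries. Each RBM10 library has its own IgG library per the design text. The correlations of the pairs' deviations were 0.022, 0.003, −0.022 and 0.023. Other tools were numpy 2.4.6 and scipy 1.17.1 under Python 3.11.15, with pandas 2.3.3 and matplotlib 3.10.9.

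The 35 genes, the 14 further lists (167 genes) and the tests were chosen with earlier results of these data known. The rule for named genes allowed all 35, Rbm10, and of each list the genes that passed a test and up to 3 with the highest mean TPM in wild-type md cells. Other list genes (the Ptprc, Sox10, Foxd3, Pax3 and Pdgfrb levels) were named after their values were seen. The sequences shown were at most 1 per gene and 6 in all. Some list genes that the rule takes are not reported here.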

Additional observations from a re-analysis of the deposited data

Results flagged for a closer look

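In 44 groups of 4 libraries, 1 library was compared with the spread of the other 3 (the gap to its nearest neighbour divided by the range of the group, against the 95% limit of Dixon for 4 values). For normally spread values chance marks about 1 in 20 such groups, and 5 were marked, all among the md knockout clones. Of the genes marked, Fgf10, Dlx6 and Mn1 were listed at 0 in KO1 and KO2, where that rate need not hold. Fgf10 had 11.6 TPM in KO3, a gap of 0.890 of the range. Osr2, a palate factor, had 2.52 TPM in KO3 and at most 0.421 in the other clones (0.926). Dlx6 had 7.08 TPM in KO4 (0.939), and Mn1, another palate factor, had 1.00 TPM in KO4 and at most 0.166 in the others (0.834). Pdgfc had 51.5 TPM in KO1 and at most 27.4 in the others (0.842). KO3 and KO4 thus held 4 of the 5 extremes, in different genes.

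Msx1 was lower in every md clone than in every wild-type md sample (mean 3.69 against 6.78 TPM) and higher in every gene trap ES sample than in every parental sample (mean 1.52 against 0.279 TPM). The difference between the cell types was not tested, because the tables were normalized separately.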

How the results depend on the processing

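In md cells 0 of the 35 genes passed under the main setting and under each of 12 alternatives (filters, pseudocount, quantile normalization, replicate block, each library left out). The exon 9 against exon 3 contrast gave 0 to 6 genes with 1 library left out. In ES cells the count was 3, 1 with no filter on low values, 0 with the replicate block and 0 to 3 with 1 library left out, with 0 without gene trap sample 2 or 3 or parental sample 1 or 2. Over all ES genes the 1576 calls became 422 with the block, 774 with no filter and 21 to 3985 with 1 library left out. The iCLIP count was 3 and became 2 to 5 with 1 library left out. With each position counted once Bmpr1a was added. The Pdgfc and Shox2 crosslink calls held under all 14 alternatives. The block changed no other call of the 35 genes. For RNA-seq the replicate numbers are shared only as numbers (pair correlations −0.126 to 0.165), and in md cells the block took the 2 genes called to 0. All-gene md calls ranged from 0 to 6, those between exon 9 and exon 3 clones from 51 to 2228 and iCLIP calls from 1794 to 4238. No call of the 35 genes or the lists changed direction under the alternatives run. IgG libraries 3 and 4 hold few crosslinks in the thinner genes, which limits what can be told there.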
